A study of Homo sapiens with 14 samples.

Results

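The D-type cyclins and the inhibitors of cyclin-dependent kinases set the pace of the G1 phase of the cell cycle, and 10 genes of this group were examined in SCC23, a human head and neck squamous cell carcinoma (HNSCC) cell line in which the histone H3K4 methyltransferase KMT2D had been knocked out. The members were taken by gene symbol: CCND1, CCND2 and CCND3 encode the D-type cyclins, CDKN1A, CDKN1B and CDKN1C the CIP/KIP inhibitors, and CDKN2A, CDKN2B, CDKN2C and CDKN2D the INK4 inhibitors. All 10 were found among the 59471 gene names of the count files, and 39032 of those names had reads in these libraries.

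D-type cyclins bind CDK4 and CDK6, and the active kinases phosphorylate the retinoblastoma protein, so that E2F factors are released and genes for DNA replication are switched on. INK4 proteins bind CDK4 and CDK6 themselves and keep cyclin D from them, whereas CIP/KIP proteins bind cyclin-CDK complexes and restrain above all those of CDK2. In squamous carcinoma of the head and neck the CDKN2A locus on 9p21 is often deleted and the CCND1 locus on 11q13 is often amplified.

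The comparisons ask how these genes differ between KMT2D-knockout (KMT2D-KO) and wild-type (KMT2D-WT) cells in high-glucose medium (+Glc) and after 6 h without glucose (-Glc). KMT2D-WT cells carried Cas9 with a guide against LacZ, a gene that human cells lack. The KMT2D-KO cells were of 2 lines, KO1 and KO2, made with different guides against KMT2D, and all lines went through a sort for GFP, with no cloning of single cells described. Polyadenylated RNA was sequenced in 2 experiments that gave 14 libraries, namely 3 of WT +Glc, 4 of KO +Glc, 3 of WT -Glc and 4 of KO -Glc. Experiment 1 gave 1 library of each line in each medium, and experiment 2 gave 1 of each knockout line and 2 of WT in each medium. Those 2 were labelled WT1 and WT2 and were taken here as 1 line, which the labels do not settle. Nothing in the labels says which of these libraries came from separate cultures, so p-values measure the spread between libraries, which may be partly technical.

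The libraries held 15669154 to 62968057 counts, and the 4 of experiment 2 with glucose were counted by both mates of each read pair. Without glucose, the libraries of experiment 2 came in close pairs. Over genes, the chi-square per gene was 1.71 between the 2 WT libraries and 1.78 between those labelled KO1 and KO2, whereas the other 4 pairs of libraries gave 25.9 to 83.0. Over 14 genes that separated KO1 from KO2 with glucose, the -Glc library of experiment 2 labelled KO1 lay at 0.42 log2 units from KO2 and at 3.91 from KO1, so the -Glc libraries hold 1 KO1-like library, from experiment 1, and 3 KO2-like ones. KMT2D itself, in CPM (read counts scaled to a common library size), stood with glucose at 266 to 279 CPM in WT, at 182 and 184 CPM in KO1, below every WT library, and at 323 and 373 CPM in KO2, above every WT library. Its log2 difference from WT was -0.57 in KO1 (adjusted p = 1.82e-05) and 0.37 in KO2 (adjusted p = 0.000751, edgeR), so the lines went opposite ways. Without glucose it stood at 19.9 to 190.2 CPM in KO -Glc against 231 to 239 CPM in WT -Glc, and the log2 difference of -0.895 did not pass in edgeR. A transcript count does not show whether the edited gene still gives a protein. The paper reports loss of KMT2D protein in the SCC23 knockout cells by western blot. Of the epithelial markers, EPCAM (231 to 426 CPM), SFN (436 to 1127 CPM) and TP63 (71.0 to 244 CPM) were expressed in every library while KRT6A stayed at 1.13 CPM or lower, and of 8 markers of other cell types only COL1A1 (3.03 to 16.0 CPM) and COL3A1 (up to 5.26 CPM) exceeded 0.426 CPM. Of the 10 epithelial markers, 9 could be tested with glucose, of which none rose and 2 fell in KO cells. Without glucose 6 of 10 rose and 1 fell. Of all genes tested, 13% rose and 11.7% fell with glucose, and 25.9% rose and 24.9% fell without. With glucose, none of the 9 rose and 4 fell in KO1, while 3 rose and 2 fell in KO2. All genes gave 16.1% higher and 15.9% lower in KO1, and 18.0% and 16.6% in KO2. The KO -Glc libraries were mostly KO2-like, and the part of the line mix in the -Glc count was not tested. Of the other markers 2 of 3 tested rose with glucose and 1 of 1 without. The part of all these markers in the results below was not tested.

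In the GRCh38 coordinates of the count files, CDKN2A (chr9:21967752-21995301, minus strand) and CDKN2B (chr9:22002903-22009305, minus strand) are neighbours, and 15.3% of the exonic bases of CDKN2A are shared with CDKN2B-AS1, an antisense RNA of the locus. CCND1 lies at chr11:69641156-69654474 and shares 10.4% of its exonic bases with LTO1, CCND2 at chr12:4269771-4305353 shares 12.5% with CCND2-AS1 and AC008012.1, CCND3 (chr6:41934934-42050357) shares 0.417%, and CDKN1A (chr6:36676460-36687337) shares 4.87% with DINOL. CDKN1B (chr12:12715058-12722369), CDKN1C (chr11:2883213-2885775), CDKN2C (chr1:50960745-50974634) and CDKN2D (chr19:10566460-10569059) share none. Reads were counted over all exons of a gene without regard to strand, so the transcripts of CDKN2A for its INK4 protein and for the alternative-frame protein ARF are one value here. In shared exonic bases, reads of an antisense partner could not be told by strand from those of the gene.

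Promoter sequence is shown for CDKN2C, CDKN2D and CDKN1A, the inhibitors whose levels fell in knockout cells in at least 1 medium. RefSeq promoter windows of 300 bases on GRCh38.p14, 250 before and 50 after an annotated start, were matched for 7 members (12 windows), and only the stretch outside the exons of the gene is printed, with motifs in capitals where they occur on either strand. The motifs searched were the GC box with the letters GGGCGG, the box with the letters CCAAT, the TATA box searched as TATAAA, the palindromic E-box searched as CACGTG, and the E2F sites searched as TTTCCCGC and as TTTGGCGC. The first line is the stretch before the first start of CDKN2C (chr1:50960495-50960744, plus strand), the next is that before the last of its 3 annotated starts (chr1:50969995-50970244, plus strand), then those of CDKN2D (chr19:10569060-10569229, minus strand) and CDKN1A (chr6:36678464-36678709, plus strand).
CDKN2C, first start: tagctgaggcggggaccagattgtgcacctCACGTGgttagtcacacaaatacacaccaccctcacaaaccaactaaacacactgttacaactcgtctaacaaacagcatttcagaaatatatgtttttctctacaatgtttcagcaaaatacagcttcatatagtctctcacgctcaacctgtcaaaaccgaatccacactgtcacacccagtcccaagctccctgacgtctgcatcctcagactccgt
CDKN2C, last start: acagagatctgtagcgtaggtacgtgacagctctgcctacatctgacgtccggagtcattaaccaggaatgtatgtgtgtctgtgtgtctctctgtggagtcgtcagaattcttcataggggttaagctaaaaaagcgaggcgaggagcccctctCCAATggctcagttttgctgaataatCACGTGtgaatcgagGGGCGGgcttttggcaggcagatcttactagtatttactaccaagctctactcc
CDKN2D: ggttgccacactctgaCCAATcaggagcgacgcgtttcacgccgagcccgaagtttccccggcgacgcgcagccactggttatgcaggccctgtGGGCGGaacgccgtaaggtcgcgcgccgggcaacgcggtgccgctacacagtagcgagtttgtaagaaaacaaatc
CDKN1A: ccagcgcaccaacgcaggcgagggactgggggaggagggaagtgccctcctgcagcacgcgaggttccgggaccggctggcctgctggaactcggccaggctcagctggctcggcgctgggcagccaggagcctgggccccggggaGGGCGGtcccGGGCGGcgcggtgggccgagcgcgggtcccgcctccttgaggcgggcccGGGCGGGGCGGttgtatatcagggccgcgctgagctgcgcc

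GC boxes stood in the CDKN1A stretch, where a pair of copies overlap, in the CDKN2D stretch and in the last-start stretch of CDKN2C. Both printed stretches of CDKN2C held the E-box, and the window at its middle start, not printed here, held 6 GC boxes and no E-box. The first bases of the CDKN1A stretch also lie in an exon of DINOL, a long noncoding RNA. Of 35116 windows of this length in the table, 45% held GGGCGG, 34.6% CCAAT, 11.5% TATAAA and 7.26% CACGTG. The E2F letters TTTCCCGC (1.63% of windows) and TTTGGCGC (0.652%) and the TATA letters were in none of the 12 windows of the members. A match is a description of the letters and not of a bound site.

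Per kilobase of exon, CCND1 gave the highest level of the 10 genes in WT +Glc cells, at 74.5 ± 8.0 CPM per kb (SD, n = 3), and its lowest library lay above the highest of CCND2 (42.2 ± 7.6). CDKN1B (21.1 ± 4.4), CDKN2D (20.8 ± 11.6), CDKN1A (18.8 ± 7.4), CCND3 (18.7 ± 2.8) and CDKN2C (18.7 ± 5.3) followed and did not differ from each other beyond their spread. CDKN2A (5.12 ± 2.3) and CDKN2B (3.62 ± 0.49) were lower and overlapped each other. CDKN1C, an imprinted gene of the CIP/KIP family, was close to the limit of detection, with 0 to 21 counts per library. In KO -Glc cells CCND1 again led (74.9 ± 1.8 CPM per kb, n = 4), and the inhibitors stood in another order, with CDKN1B at 21.5 ± 4.9, CDKN1A at 13.7 ± 6.9, CDKN2A at 10.2 ± 2.1, CDKN2D at 8.12 ± 4.4, CDKN2B at 2.995 ± 0.178 and CDKN2C at 2.74 ± 1.95. The ranges of CDKN1B and CDKN1A overlapped there, as did those of CDKN1A, CDKN2A and CDKN2D and those of CDKN2B and CDKN2C. CDKN2D also overlapped CDKN1B and CDKN2C.

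**Figure D1:**
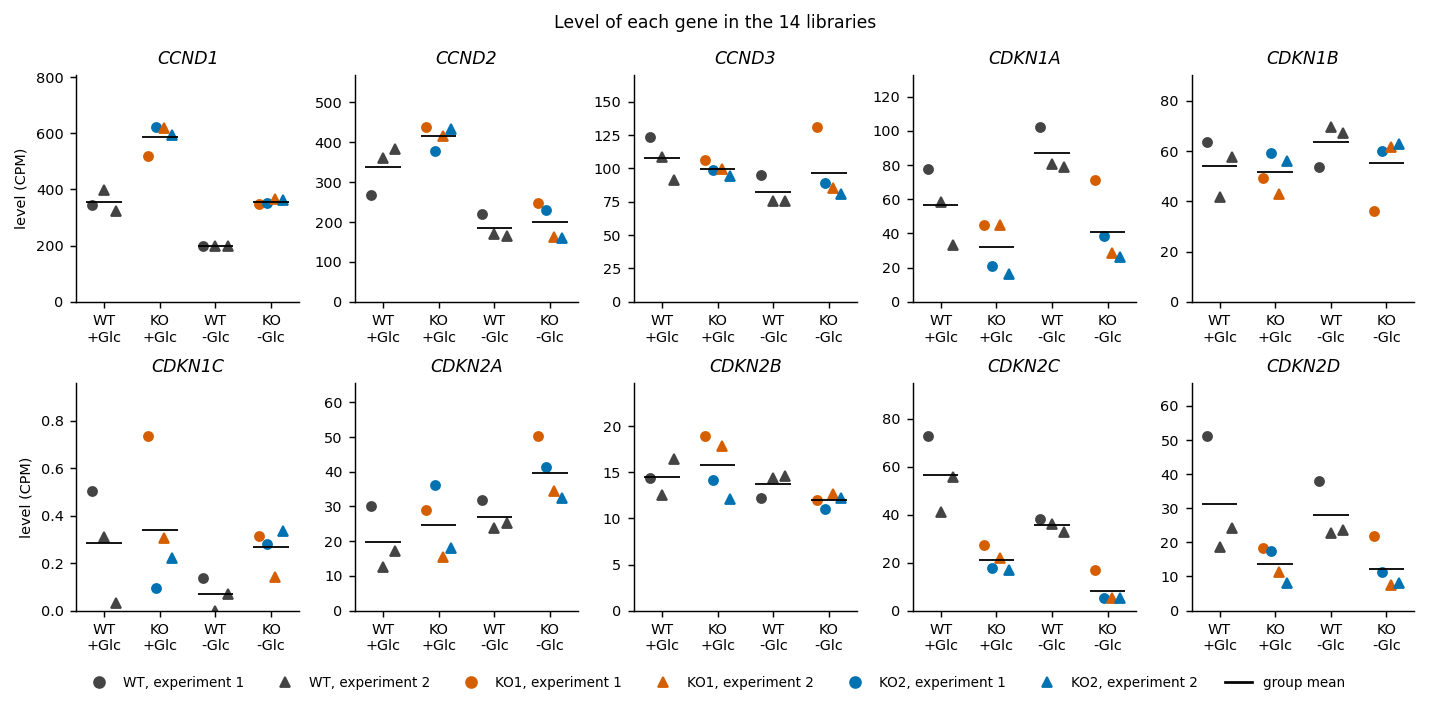
Level of each gene in CPM (vertical axis, from 0, own scale per gene) in the 14 libraries by group; colour gives the line, shape the experiment and the bar the group mean. CCND1 is higher and CDKN2C and CDKN2D are lower in every knockout library than in any wild-type library of the same medium.

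Knockout cells had more CCND1 and less CDKN2C and CDKN2D RNA than wild-type cells in both media. With glucose, 2 of the 10 members rose (CCND1 and CCND2) and 2 fell (CDKN2C and CDKN2D), where 13% of 20423 genes tested rose and 11.7% fell (24.7% in all) by edgeR's quasi-likelihood test with the experiment in the model. Without glucose, 9 members could be tested, of which CCND1 and CDKN2A rose and CDKN1A, CDKN2C and CDKN2D fell. There 25.9% of 16782 genes rose and 24.9% fell (50.8% in all), so a share of 5 in 9 is near that of all genes. The median log2 difference of the members was 0.01 with glucose and -0.17 without, beside 0.02 and 0.00 over all genes tested. Bulk RNA does not tell a change in every cell from a change in the share of cells that hold the transcript.

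CCND1, the cyclin that couples growth signals to CDK4 and CDK6, stood with glucose at 344, 396 and 323 CPM in the 3 WT libraries. The 4 knockout libraries gave 518 and 618 CPM for KO1 and 622 and 595 CPM for KO2. All knockout libraries were above all wild-type ones, which held for 9.66% of the genes tested in this direction and 20.1% in either, and the log2 difference was 0.75 (SE 0.11, 95% interval 0.51 to 0.99, adjusted p = 0.00134, edgeR). Without glucose the WT libraries lay at 199, 198 and 198 CPM. The KO libraries lay at 347 and 365 CPM with the label KO1 and at 351 and 362 CPM with the label KO2, again with no overlap (16.3% of genes in this direction, 35.2% in either). That difference was 0.83 (SE 0.06, 95% interval 0.70 to 0.97, adjusted p = 8.89e-05).

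CCND2, the second D-type cyclin, moved less. With glucose it stood at 268, 359.8 and 384 CPM in WT and at 438, 378, 414 and 434 CPM in KO libraries, so the groups overlapped by 1 KO2 library. The log2 difference was 0.36 (SE 0.11, adjusted p = 0.0407), and leaving out any 1 library but 1 took the adjusted p to between 0.0526 and 0.354. It was 0.60 in experiment 1, which has 1 WT library, and 0.18 in experiment 2, which did not pass alone (adjusted p = 0.341). Without glucose the difference of CCND2 was -0.01 (95% interval -0.21 to 0.19, adjusted p = 0.959). CCND3, the D-type cyclin best known from blood cells, ranged from 91.4 to 124 CPM in WT and 94.7 to 106 CPM in KO cells with glucose, and its difference was -0.13 (95% interval -0.34 to 0.09, adjusted p = 0.375). Without glucose it was 0.15 (95% interval -0.21 to 0.50, adjusted p = 0.435), and the KO1 library of experiment 1 alone reached 131 CPM.

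CDKN2C gave the largest difference among the members. With glucose its WT libraries held 72.8, 40.9 and 55.5 CPM, KO1 libraries 27.3 and 21.7 CPM, and KO2 libraries 17.6 and 17.1 CPM. Every knockout library was lower than every wild-type library (10.4% of genes in this direction), by a log2 difference of -1.46 (SE 0.18, 95% interval -1.86 to -1.06, adjusted p = 0.000583, edgeR), a fold of 0.363. Without glucose the WT libraries held 38.2, 36.0 and 32.8 CPM and the KO1 library of experiment 1 held 17.1 CPM. The other 3 knockout libraries, all KO2-like, held 5.33, 5.36 and 5.27 CPM, which were therefore lower than both the WT and the KO1 library. The log2 difference there was -2.33 (SE 0.41, 95% interval -3.31 to -1.36, adjusted p = 0.00341), with no overlap of the groups (18.9% of genes in this direction).

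CDKN2D, the INK4 inhibitor whose level is known to vary through the cell cycle, stood with glucose at 51.3, 18.5 and 24.3 CPM in WT libraries. The knockout libraries gave 18.4 and 11.2 CPM for KO1 and 17.4 and 8.06 CPM for KO2. Experiment 1 was higher than experiment 2 in both genotypes, and the lowest WT library (experiment 2) and the highest KO library (experiment 1) nearly met. With the experiment in the model the log2 difference was -1.29 (SE 0.16, 95% interval -1.65 to -0.93, adjusted p = 0.000597), and within the experiments the means of log2 CPM differed by -1.49 and -1.12. Without the experiment in the model it was -1.18 with an adjusted p of 0.172. Without glucose WT libraries held 38.1, 22.8 and 23.5 CPM and KO libraries 21.9, 11.3, 7.64 and 7.99 CPM, the first of these being the KO1 library of experiment 1. That difference was -1.43 (SE 0.24, 95% interval -2.003 to -0.854, adjusted p = 0.00287).

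CDKN2A, the tumour suppressor of the 9p21 locus, was transcribed in all libraries. With glucose it lay at 30.0, 12.4 and 17.2 CPM in WT and 29.1, 36.1, 15.5 and 18.0 CPM in KO libraries, which differed by experiment more than by genotype, and the log2 difference was 0.16 (95% interval -0.16 to 0.49, adjusted p = 0.461). Without glucose WT libraries gave 31.9, 23.8 and 25.2 CPM and KO libraries 50.4, 41.3, 34.5 and 32.3 CPM. The groups just failed to overlap (16.3% of genes in this direction, 35.2% in either). The difference was 0.46 (SE 0.11, adjusted p = 0.0123), and leaving out single WT libraries took the adjusted p to 0.0932 and 0.0529. CDKN2B, its neighbour and a known target of TGF-beta signalling, stood at 10.99 to 19.0 CPM in all 14 libraries, and its differences were 0.12 with glucose (95% interval -0.30 to 0.53, adjusted p = 0.696) and -0.19 without (95% interval -0.44 to 0.06, adjusted p = 0.182).

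CDKN1A, the CIP/KIP inhibitor that halts cells after DNA damage, set the knockout lines apart. With glucose the WT libraries held 77.7, 58.2 and 33.3 CPM, the KO1 libraries 44.9 and 45.0 CPM, and the KO2 libraries 21.2 and 16.5 CPM. The KO1 libraries lay within the range of WT and the KO2 libraries below it, and over both lines the log2 difference was -0.83 (SE 0.37, 95% interval -1.68 to 0.01, adjusted p = 0.143). Without glucose WT libraries gave 102.3, 80.5 and 78.9 CPM, the KO1 library of experiment 1 gave 71.1 CPM, and the 3 KO2-like libraries gave 38.3, 28.7 and 26.0 CPM. The groups did not overlap (18.9% of genes in this direction, 35.2% in either), and the difference was -1.31 (SE 0.26, 95% interval -1.92 to -0.70, adjusted p = 0.00536). CDKN1B, which holds resting cells out of the cycle and is controlled largely by protein turnover, ranged from 36.3 to 69.6 CPM over all libraries, with differences of -0.09 (95% interval -0.41 to 0.24, adjusted p = 0.709) and -0.17 (95% interval -0.51 to 0.18, adjusted p = 0.373). CDKN1C had 2 to 21 counts in +Glc libraries, where its difference was 0.24 (95% interval -1.49 to 1.96, adjusted p = 0.86), and 0 to 8 counts in -Glc libraries, too few for a test. In the WT -Glc library without a count, 0 counts allow up to 0.0965 CPM, unscaled (3 counts of 31074996; counting error only).

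**Figure D2:**
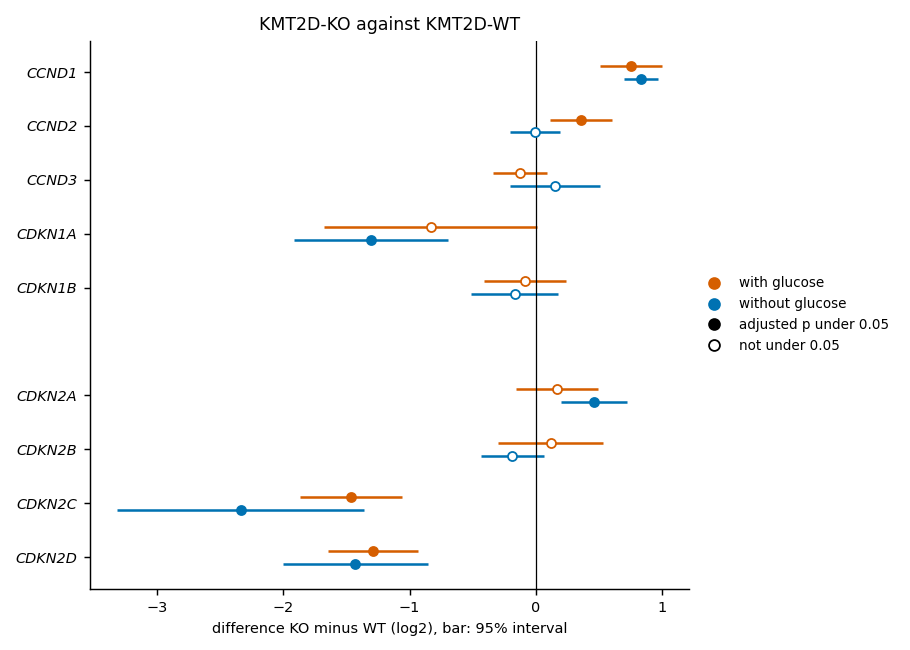
Log2 difference between KMT2D-KO and KMT2D-WT (horizontal axis, KO minus WT) for 9 genes with glucose and without, with 95% intervals; filled points passed an adjusted p of 0.05, and CDKN1C is left out for its few counts. CCND1 lies right of 0 and CDKN2C and CDKN2D left of 0 in both media, and CDKN1A lies at -0.83 and -1.31.

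The -Glc calls rest on libraries whose labels are in doubt. With the close pairs of experiment 2 summed to 1 library each, 1 member was called, CCND1 at 0.84 (adjusted p = 0.0213). Of all genes, 2785 of 16867 were called there, against 8521 of 16782 with all libraries. The differences of CDKN1A (-1.18), CDKN2C (-2.17) and CDKN2D (-1.35) had adjusted p of 0.0823, 0.0632 and 0.0595, and that of CDKN2A (0.49) 0.115. Without the 2 knockout libraries of experiment 2 no gene of the 16946 tested passed, and so none of the 5 members did. Their differences were 0.84 for CCND1 (adjusted p = 0.0537), -0.87 for CDKN1A (0.214), 0.55 for CDKN2A (0.153), -1.74 for CDKN2C (0.167) and -1.17 for CDKN2D (0.148). The directions were the same as with all 7 libraries. The same members in experiment 1 alone, where the line genes matched the labels, differed by 0.81 for CCND1, -0.90 for CDKN1A, 0.53 for CDKN2A, -1.77 for CDKN2C and -1.20 for CDKN2D. These come from 1 WT and 2 KO libraries, so only the differences are given.

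Whether the knockout effect itself depended on glucose was tested as the interaction over all 14 libraries. No member passed in edgeR with the filter on low counts, against 11.3% of 18678 genes (4.73% higher, 6.54% lower), nor in DESeq2, and 1 of 9 had an unadjusted p under 0.05 in edgeR. That gene was CCND2, with an interaction of -0.34 on the log2 scale (95% interval -0.63 to -0.04, adjusted p = 0.127). For CDKN2C the interaction was -0.85 (95% interval -1.82 to 0.11, adjusted p = 0.24), and with no filter on low counts it was -0.86 and passed (adjusted p = 0.00141). The filter thus changed the call and hardly the estimate, which moved more with the libraries used. Leaving out the KO1 library of experiment 1 without glucose brought the CDKN2C interaction to -1.27 (adjusted p = 0.00314). Leaving out both KO libraries of experiment 2 without glucose brought it to -0.21 (adjusted p = 0.9). For CCND1 the interaction was 0.11 (95% interval -0.16 to 0.37, adjusted p = 0.62) and for CDKN1A -0.45 (95% interval -1.56 to 0.66, adjusted p = 0.62). The knockout libraries of the 2 media hold different mixes of KO1-like and KO2-like libraries, and the part of this in the interaction was not tested.

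The lines could be compared with glucose, where each had 1 library per experiment. Against WT, CCND1 and CCND2 rose and CDKN2C and CDKN2D fell in KO1 and in KO2 alike, and CDKN1A fell in KO2 alone. Both comparisons used the same 3 WT libraries, so they are not independent. Over both lines, CCND2 kept its call in 1 of 7 removals of a single library. CCND1 was higher by 0.69 in KO1 (adjusted p = 1.12e-05) and by 0.81 in KO2 (adjusted p = 1.78e-06), where 16.1% and 18.0% of 21850 genes rose, 15.9% and 16.6% fell, and 32.0% and 34.6% were called in all. CDKN1A differed from WT by -0.33 in KO1 (adjusted p = 0.187) and by -1.61 in KO2 (adjusted p = 3.64e-06). Between the lines, 3 of 10 members were higher in KO1 than in KO2 and none was lower, beside 7.32% and 7.40% of all genes (14.7% in all). They were CDKN1A at 1.28 (SE 0.20, adjusted p = 0.000325), CDKN2B at 0.49 (SE 0.15, adjusted p = 0.0373) and CDKN2C at 0.46 (SE 0.15, adjusted p = 0.0495). For CCND1 the difference between the lines was -0.12 (95% interval -0.33 to 0.09) and for CDKN2D 0.29 (95% interval -0.05 to 0.63). Epithelial markers also separated the lines, with 5 of 9 lower in KO1 than in KO2 and none higher (median -1.015), and KRT5 stood at 8.79 and 1.505 CPM in KO1 against 166 and 82.9 CPM in KO2. Their part in these differences was not tested. Without the experiment in the model none of the 3 members passed (adjusted p of 0.577 or higher). The calls of KO1 against WT were then lost too (adjusted p of 0.0857 or higher), with 530 of 21850 genes called. Of those of KO2 against WT only CDKN2C passed (adjusted p = 0.0365), with CCND1 at 0.0721 and CDKN1A at 0.0867.

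**Figure D3:**
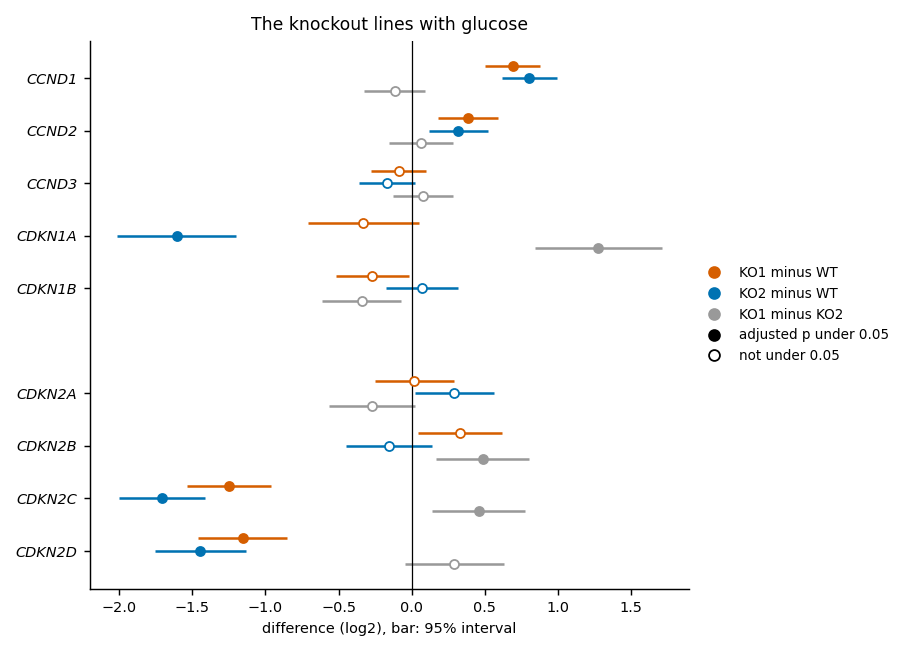
Log2 differences with glucose (horizontal axis) of KO1 and KO2 from WT and of KO1 from KO2 for 9 genes, with 95% intervals; filled points passed an adjusted p of 0.05. CCND1, CCND2, CDKN2C and CDKN2D differ from WT in both lines, and CDKN1A in KO2 alone, at -1.61.

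CCND1 was lower without glucose in WT cells, in KO cells and in experiment 1 alone, and CCND2 and CCND3 passed in some of these fits. In WT cells CCND1 fell by 0.83 (SE 0.09, adjusted p = 0.0168), CCND2 fell by 0.85 (SE 0.19, adjusted p = 0.0412) and CCND3 fell by 0.38 (SE 0.07, adjusted p = 0.0343), and no other member passed, where 7.58% of 17227 genes fell and 7.15% rose (14.7% in all). The nearest were CDKN2C at -0.62 (adjusted p = 0.0501) and CDKN1A at 0.68 (adjusted p = 0.0858). Under 11 alternatives to this fit CDKN2C passed as lower 5 times, and CDKN1A and CDKN2A as higher 4 times each, while each cyclin passed 6 times. In KO cells CCND1 fell by 0.75 (SE 0.09, adjusted p = 0.00182), CCND2 fell by 1.11 (SE 0.14, adjusted p = 0.00224) and CDKN2C fell by 1.45 (SE 0.38, adjusted p = 0.0256), while CDKN2A rose by 0.72 (SE 0.15, adjusted p = 0.0133). There 16.0% of 16057 genes fell and 14% rose (30.0% in all). In KO cells CCND3 differed by -0.08 (95% interval -0.40 to 0.23) and CDKN1A by 0.25 (95% interval -0.69 to 1.20). The fit in KO cells compares different mixes of lines. With glucose each line had 1 library per experiment, and without glucose all but the KO1 library of experiment 1 were KO2-like. With glucose CDKN1A (1.28), CDKN2B (0.49) and CDKN2C (0.46) were higher in KO1 than in KO2. The part of the line mix in these changes was not tested.

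The -Glc and +Glc libraries of experiment 2 differ in how mates were counted, so deprivation and counting cannot be told apart there, and experiment 1 was also tested alone with the line as a block. In that fit CCND1 fell by 0.75 (adjusted p = 0.0438) and CDKN2C fell by 1.11 (adjusted p = 0.0418), where 0.622% of 16066 genes fell and 0.479% rose (1.10% in all). Leaving out either KO2 library of experiment 1 ended both calls, with adjusted p of 0.4 and 0.348 for CCND1 and 0.145 and 0.142 for CDKN2C. The single changes of CCND1 in experiment 1 were -0.79 in WT, -0.58 in KO1 and -0.82 in KO2, and those of CDKN2C -0.92, -0.66 and -1.64. CCND2 changed by -0.28, -0.82 and -0.71 in the same order (adjusted p = 0.0865). CDKN1A went up in all 3 lines, by 0.40, 0.66 and 0.84 (adjusted p = 0.0882), and CCND3 and CDKN2D moved up in KO1 and down in WT and KO2. In WT cells, leaving out either experiment 2 library of either medium ended all 3 cyclin calls (adjusted p of 0.0556 to 0.194), with at most 1 gene called of all tested. Leaving out either experiment 1 library kept them and called 7 members, with CDKN1A, CDKN1B, CDKN2A and CDKN2C added. There 8744 of 18430 and 8747 of 18377 genes were called. In KO cells the call of CDKN2C was lost in 5 of 8 removals of a single library (adjusted p of 0.059 to 0.101) and that of CDKN2A in 1 of 8 (adjusted p = 0.0515, without the -Glc library of experiment 2 labelled KO2). The 5 were both KO1 +Glc libraries, the KO2 +Glc library of experiment 2 and either -Glc library of experiment 2. Without the 2 knockout -Glc libraries of experiment 2 no member passed, and 83 of 17292 genes did, against 4813 of 16057 with all libraries. The changes were -0.73 for CCND1 (adjusted p = 0.0952), -0.80 for CCND2 (adjusted p = 0.0785), -1.03 for CDKN2C (adjusted p = 0.322) and 0.46 for CDKN2A (adjusted p = 0.269).

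**Figure D4:**
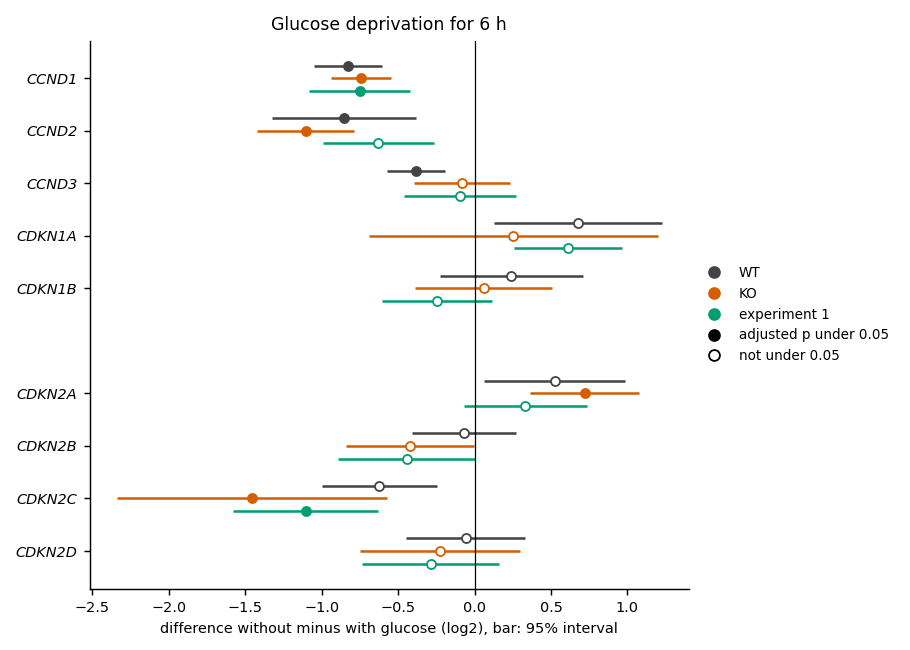
Log2 change after 6 h without glucose (horizontal axis, without minus with glucose) for 9 genes in WT, in KO and in experiment 1 alone, with 95% intervals; filled points passed an adjusted p of 0.05. CCND1 lies between -0.83 and -0.75 in all 3 fits.

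Summed per kilobase of exon, the D-type cyclins gave 127 to 147 CPM per kb in WT +Glc and 182 to 199 in KO +Glc libraries, and 75.3 to 86.0 in WT -Glc and 110.1 to 127 in KO -Glc libraries. CCND1 made up 54.9% ± 3.0 (SD, n = 3) of that sum in WT +Glc and 63.95% ± 3.1 (n = 4) in KO +Glc cells. The INK4 sum was 32.2 to 69.5 CPM per kb in WT +Glc, 18.7 to 33.5 in KO +Glc, 36.6 to 49.2 in WT -Glc and 18.4 to 36.2 in KO -Glc libraries. Its makeup also differed. In WT -Glc cells CDKN2D gave 45.1% ± 5.6, CDKN2C 29.3% ± 3.4 and CDKN2A 17.0% ± 0.60 of the INK4 sum, and in KO -Glc cells CDKN2A gave 43.7% ± 5.3, CDKN2D 32.3% ± 5.9 and CDKN2C 10.6% ± 3.5. The ratio of the cyclin sum to the INK4 sum was 1.83 to 4.57 in WT +Glc and 5.43 to 10.5 in KO +Glc libraries, and 1.75 to 2.07 in WT -Glc and 3.50 to 5.97 in KO -Glc libraries. These sums are transcript levels and are given as a description, without a test.

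**Figure D5:**
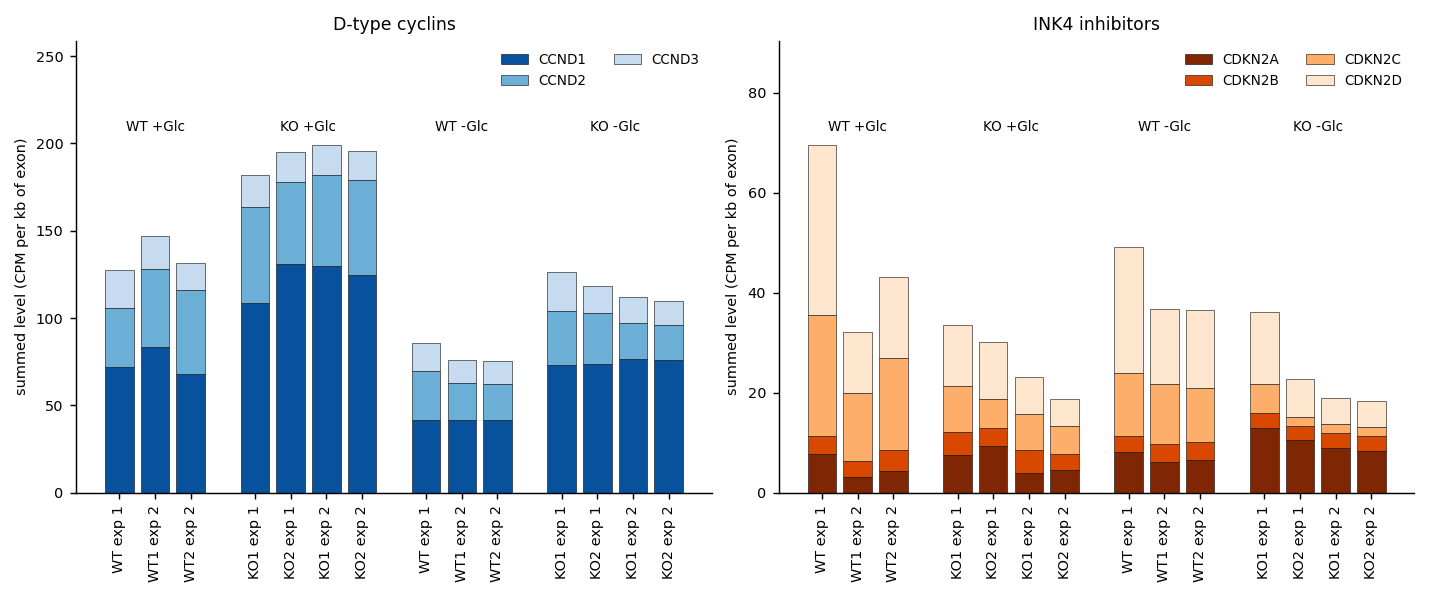
Summed level in CPM per kb of exon (vertical axis, from 0) of the 3 D-type cyclins (left) and the 4 INK4 inhibitors (right) in each of the 14 libraries, stacked by gene; the label gives line and experiment. The cyclin stack is taller in knockout than in wild-type libraries of the same medium, and the CDKN2C and CDKN2D parts of the INK4 stack are smaller.

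Across the 14 libraries, with the mean of each experiment and medium taken out, CDKN2C and CDKN2D had a Pearson r of 0.977 and each ran against CCND1 (-0.932 and -0.945), while CDKN1A went with CDKN2C (0.872). These libraries share genotype and line within each block, so the values mostly restate those contrasts. Of 10889 genes with a mean of at least 5 CPM, the 3 most like CDKN2C in the same measure were HOXD8 (0.994), LDB1 (0.991) and PPP3CB (0.99), and those most like CDKN2D were FRA10AC1 (0.99), EID2 (0.988) and PPP3CB (0.987). For CCND1 they were SLC19A1 (0.992), GRPEL1 (0.991) and the pseudogene RPL26P30 (0.991), and for CDKN1A TMED4 (0.987), TMEM185B (0.974) and FAM110C (0.972).

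Counts of further genes are read against all genes tested, of which 13% rose and 11.7% fell with glucose and 25.9% rose and 24.9% fell without. Of 22 genes of the G1/S step, 3 rose and 3 fell in KO cells with glucose and 5 rose and 4 fell without, with medians of 0.20 and 0.13. Against WT with glucose, 2 rose and 3 fell in KO1 and 10 rose and 5 fell in KO2, beside 16.1% and 15.9% of all genes in KO1 and 18.0% and 16.6% in KO2. Tested directly, 2 of the 22 were higher and 7 lower in KO1 than in KO2, beside 7.32% and 7.40% of all genes. CDK4, the kinase that D-type cyclins activate, differed by 0.48 with glucose (adjusted p = 0.191) and 0.51 without (adjusted p = 0.0316), and CDK6 by 0.22 (adjusted p = 0.414) and 0.62 (adjusted p = 0.104). By line, with glucose, CDK4 was higher by 0.85 in KO2 (adjusted p = 1.45e-06) and differed by -0.01 in KO1 (adjusted p = 0.936). E2F1, an activator of replication genes, fell by 0.33 with glucose (adjusted p = 0.0222) and differed by 0.12 without (adjusted p = 0.257). It was the 1 gene of these 22 that passed in the interaction (0.47, adjusted p = 0.0222), beside 11.3% of 18678 genes. The knockout libraries of the 2 media hold different line mixes, and the part of this in that value was not tested. E2F8 fell by 0.84 and 1.10 (adjusted p = 0.00146 and 0.000454) and E2F2 fell by 0.48 and 1.52 (adjusted p = 0.0196 and 0.00852), while E2F5 rose by 0.60 with glucose (adjusted p = 0.0223) and differed by 0.24 without (adjusted p = 0.232). CCNE2, a cyclin of CDK2, fell by 0.68 without glucose (adjusted p = 0.00323) and differed by -0.21 with it (adjusted p = 0.361), while CCNE1 (0.20 and 0.09) and RB1 (-0.10 and 0.13), the retinoblastoma gene, did not pass.

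Of 16 proliferation markers, 1 rose and 5 fell with glucose and 3 rose and 6 fell without, with medians of -0.21 and -0.23, beside 13% higher and 11.7% lower of all genes with glucose and 25.9% and 24.9% without. MKI67 fell by 1.17 and 1.72 (adjusted p = 0.00011 and 3.11e-05), and BUB1, a mitotic checkpoint kinase, fell by 0.68 and 1.02 (adjusted p = 0.0163 and 0.0271). MCM5, a subunit of the replicative helicase, fell by 1.05 with glucose and 0.65 without (adjusted p = 0.000176 and 0.000299), whereas CDT1, which loads that helicase, rose by 0.98 without glucose (adjusted p = 6.54e-05). By line with glucose, 1 of the 16 markers rose and 9 fell in KO1, and 1 rose and 7 fell in KO2. All genes gave 16.1% higher and 15.9% lower in KO1, and 18.0% and 16.6% in KO2. Between the lines, 2 markers were higher and 6 lower in KO1 than in KO2, beside 7.32% and 7.40% of all genes. Cell number and cycle phase were not measured in these libraries.

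Of 16 genes of the TGF-beta, FOXO and MYC group, 9 rose in each medium and 2 and 1 fell, beside 13% and 25.9% of all genes higher and 11.7% and 24.9% lower. KLF4, a factor of differentiating epithelium, rose by 1.78 and 3.60 (adjusted p = 0.000167 and 4.33e-05), and MYC rose by 0.82 and 2.12 (adjusted p = 0.000155 and 2.76e-05). TGFB1, which encodes a TGF-beta ligand, fell by 0.88 with glucose (adjusted p = 0.000392) and differed by -0.16 without (adjusted p = 0.493). EZH2, the H3K27 methyltransferase of the Polycomb group, fell by 0.85 and 0.53 (adjusted p = 0.00393 and 0.00232), and FOXO4 rose by 1.301 without glucose (adjusted p = 0.00117). Of 13 genes for the turnover of cyclins and inhibitors, 1 rose and 1 fell with glucose and 4 rose and 2 fell without, and SKP2, which marks CDKN1B protein for degradation, differed by 0.40 and 0.20 (adjusted p = 0.117 and 0.238).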

How the data were processed

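SCC23 RNA was sequenced as polyadenylated RNA in 14 libraries. Per the file headers and the study's methods, the authors aligned reads with HISAT2 and deposited raw counts per gene name from featureCounts 2.0.3 (Ensembl 102, GRCh38, unstranded, primary alignments), and in 4 libraries both mates of a pair were counted. Every row of the counts carried a gene name. From these counts edgeR 4.0.16 in R 4.3.3 filtered low genes (filterByExpr, minimum count 10), scaled by TMM and ran the quasi-likelihood test with Benjamini-Hochberg adjustment over all genes tested (threshold 0.05). Levels are CPM with TMM factors over the 14 libraries, and SE and 95% intervals come from the F statistics.

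The main fits hold the experiment as a covariate, which is also the replicate block. The experiments shifted both genotypes together (correlation of the shifts over genes 0.92 with and 0.829 without glucose). Each medium was fitted alone. Each library was left out in turn, and DESeq2 1.42.0, RLE scaling, no filter, no experiment term, single experiments, single lines, close libraries summed or left out, and the mate-counted libraries halved were tried. At totals of 15669154 to 62968057 counts, CDKN1C was the one member with too few counts for some tests.

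The members, gene lists and tests were chosen with earlier results of these data known. The text names all 10 members, KMT2D, set partners such as CDK4, CDK6, E2F1, CCNE1, CCNE2, RB1, SKP2 and MTAP, of each further list up to 3 called genes of at least 5 CPM with the largest differences, and the 3 genes most alike to a member. Scripts were tested on simulated data. Some genes and lists under that rule are not reported here.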

Additional observations from a re-analysis of the deposited data

Results flagged for a closer look

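In the 4 KO -Glc libraries, the KO1 library of experiment 1 stood far from the other 3 for 3 members. CDKN2C lay at 17.1 CPM there and at 5.27 to 5.36 CPM in the rest, CDKN1B at 36.3 CPM with the nearest other library at 59.95 CPM, and CCND3 at 131 CPM with the nearest at 89.4 CPM. The gap to the nearest library took 0.992, 0.898 and 0.832 of the group's range, past Dixon's critical value for 4 independent values. That value does not strictly hold here, since all 3 other libraries are KO2-like and those of experiment 2 are a close pair (chi-square per gene 1.78), so the gaps are given as a description. In all, 20 groups of 4 were looked at, of which chance alone is set to flag about 1 in 20. This library is the KO1-like one of its group by 14 line genes, it holds 19.9 CPM of KMT2D where the other 3 hold 145 to 190.2 CPM, and the part of either in these levels was not tested.

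The knockout lines differed with glucose in CDKN1A (1.28 higher in KO1 than in KO2 on the log2 scale), CDKN2B (0.49) and CDKN2C (0.46), each past an adjusted p of 0.05 in edgeR's quasi-likelihood test of the difference between the lines. Of all genes tested, 14.7% passed there. Without the experiment in the model none of these members passed (adjusted p of 0.577 or higher).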

How the results depend on the processing

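Over all alternatives, called differences of members kept their side of the threshold 219 times and lost it 81 times, with no change of sign. Values that were not called stayed so 513 times, passed 37 times and changed sign 45 times; the causes were not tested. The replicate block (the experiment) decided many calls. Without the replicate block, the members and genes called were 2 and 971 for KO against WT with glucose (4 and 5042 with it), 2 and 3659 without glucose (5 and 8521), 0 and 2 for deprivation in WT (3 and 2536), 2 and 1465 in KO (4 and 4813), 0 and 0 in experiment 1 (2 and 177, line as block), 0 and 530 for KO1 against WT (4 and 6993), 1 and 576 for KO2 against WT (5 and 7563), and 0 and 11 for KO1 against KO2 (3 and 3215), while the interaction called 70 genes (2105 with it).

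DESeq2 without the experiment called 2 members and 2577 genes with glucose and 4821 genes without. Experiment 1 alone called 2 and 304 with glucose and 0 and 0 without, and experiment 2 alone 2336 genes with glucose and 8 members and 12888 genes without. Without glucose, summing the close pairs gave 1 and 2785, keeping 1 library of each pair 1 and 2710, and leaving out both KO libraries of experiment 2 gave 0 and 0. These last 2 settings were chosen after seeing the data, as was the last one for deprivation in KO (0 and 83) and for the interaction (58 genes). With no filter on low counts the interaction called 1 member, CDKN2C, and DESeq2 called 3473 genes there. For deprivation in WT, no filter gave 6 and 5560 and DESeq2 6 and 6213. In experiment 1, RLE scaling gave 329 genes, no filter 4 and 1158, and DESeq2 4 and 631.

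Leaving out 1 library at a time gave 3 to 5 members and 2142 to 5048 genes for KO against WT with glucose, 4 to 6 and 6031 to 12448 without, 0 to 1 and 788 to 4230 for the interaction, 0 to 7 and 0 to 8747 for deprivation in WT, 2 to 5 and 1991 to 6553 in KO, and 0 to 4 and 162 to 1336 in experiment 1. CDKN1A with glucose passed under 3 of 17 alternatives, which include fits in DESeq2. The 3 were edgeR fits, namely without the KO1 library of experiment 2 (-1.35, adjusted p = 0.0114), with no filter on low counts (-0.85, 4.25e-11) and with KO2 alone (-1.62, 5.42e-06). Among the others its adjusted p reached 0.544.

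Signs changed only for differences that were not called. With glucose they were CDKN1C in experiment 1 alone (-0.33) and, with KO2 alone, CDKN1B (0.0705), CDKN1C (-0.50) and CDKN2B (-0.16). Without glucose CCND2 was 0.10 without the replicate block, 0.046 with RLE scaling and with DESeq2, 0.17 with DESeq2 without the experiment, 0.12 in experiment 1 alone, 0.0429 with the libraries labelled KO1 alone (1 of which is KO2-like), 0.0414 with the pairs summed, 0.037 with 1 of each pair, and 0.14 without both KO libraries. Without those libraries the interaction was 0.0284 for CDKN1A, 0.0308 for CDKN1B and 0.19 for CDKN2D, and deprivation in KO 0.079 for CCND3 and -0.20 for CDKN1B. Leaving out single libraries, values ranged with glucose from -0.21 to 0.0145 for CDKN1B, -0.28 to 0.90 for CDKN1C and -0.0291 to 0.27 for CDKN2B, and without from -0.11 to 0.0425 for CCND2. The interaction ranged from -0.71 to 0.0615 for CDKN1A, -0.17 to 0.0797 for CDKN1B and -0.32 to 0.0482 for CDKN2D. Deprivation ranged in WT from -0.20 to 0.0194 for CDKN2B and -0.22 to 0.12 for CDKN2D, in KO from -0.23 to 0.0085 for CCND3, -0.0308 to 0.70 for CDKN1A and -0.071 to 0.25 for CDKN1B, and in experiment 1 from -0.28 to 0.0468 for CCND3.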

Other observations

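The genes next to CDKN2A and CDKN2B on 9p21 were read as a list of 7. With glucose 3 rose in KO cells and none fell (median 0.38), and without glucose 5 rose and 1 fell (median 0.53), where 13% and 25.9% of all genes tested rose and 11.7% and 24.9% fell. MTAP, a methionine salvage enzyme whose gene is often lost together with CDKN2A, rose by 0.54 and 0.53 on the log2 scale (adjusted p = 0.00283 and 0.00275, edgeR). The gene that fell was CDKN2B-AS1, by 1.11 without glucose (adjusted p = 0.0118). With glucose it differed by -0.36 (adjusted p = 0.124). CDKN2B-AS1 shares exonic bases with CDKN2A, which rose without glucose. On 11q13, 5 of 9 neighbours of CCND1 could be tested, and over both lines none rose in either medium, while 1 fell with glucose and 3 fell without (medians -0.15 and -0.47). By line with glucose, none of these 5 rose and 2 fell in KO1, and 2 rose and 1 fell in KO2. The 9p21 list gave 3 higher and none lower in KO1, and 4 higher and 1 lower in KO2. All genes gave 16.1% higher and 15.9% lower in KO1, and 18.0% and 16.6% in KO2. LTO1, which shares exonic bases with CCND1, differed by 0.18 with glucose (adjusted p = 0.187) and fell by 0.47 without (adjusted p = 0.0029). CDKN2B-AS1 and LTO1 were named for the exonic bases they share with members, after their values were seen.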
